A study of Rattus norvegicus with 16 samples.

Results

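The voltage-gated and related ion channel genes were taken as every row of the 16 count files whose symbol begins with Kcn (potassium channels), Scn and a digit (sodium channels), Hcn and a digit (pacemaker channels) or Cacn (voltage-gated calcium channels), with at least 10 counts in at least 4 libraries. Of 138 rows with such a symbol, 73 met the count minimum, among 32754 gene rows in all. The other 65 did not. Of these, 59 had no more than 9 counts in any library, and 6 reached 10 in at least 1 library (Cacnb4, Kcna6, Kcnc1, Kcnc2, Kcnk1 and Scn9a). Just inside the minimum, Kcnj15 and Scn2b reached it in 4 libraries, and Cacna2d3, Scn2a and Kcna3 did in 5. Just outside it, Kcna6 reached it in 3 libraries, and Cacnb4 and Scn9a in 2. All 73 genes also passed the low-count filter of the test, which kept 13458 genes.

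Each library came from 10 mg of right ventricular tissue, and the animals were Sprague Dawley females aged 20 to 21 weeks. The rats were wild type (WT) or ERalpha -/- (labelled KO here), which carry a mutation of Esr1, the gene of estrogen receptor alpha, on which the labels give no further detail. Surgery was either a sham operation (SHAM) or pulmonary artery banding for 10 weeks (PAB), a narrowing against which the right ventricle must pump. Genotype and surgery were crossed, with 4 libraries per group, named here by genotype, surgery and number. Whether the libraries of a group are from separate animals is not stated, and the p-values then describe only how far these samples differ, which may be technical. The design asks what banding changes in each genotype, what the mutation changes in each surgery, and whether the response to banding differs between the genotypes.

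These channels set the electrical life of a heart cell. Inward sodium current starts the action potential, calcium current through Cacna1c holds the plateau and triggers contraction, and potassium currents of the Kcnd, Kcna, Kcnh, Kcnq, Kcnj and Kcnk families end it and keep the resting potential. Hcn channels carry the pacemaker current, which is prominent in the conduction system and usually small in working ventricle. Smooth muscle, nerve and Schwann cells of the heart use a partly different set, such as the large-conductance calcium-activated channel Kcnma1 with its subunit Kcnmb1.

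Library totals ran from 22168110 to 34718633 counts over all 16 libraries. Esr1 measured 4.31 ± 0.824 CPM (counts scaled to library size, mean ± SD, n = 4) in WT SHAM and 3.80 ± 1.00 in WT PAB. It measured 0.541 ± 0.0780 in KO SHAM and 0.371 ± 0.102 in KO PAB, so the libraries follow their genotype labels. The 6 cardiomyocyte markers (Myh6, Tnnt2, Tnni3, Actn2, Ryr2, Pln) were high in every library, as a summed level of at least 20769.6 CPM shows. Of the 5 atrial markers, Bmp10 was at most 0.0384 CPM and Sln at most 2.32, Myl7 ran from 0 to 14.1 and Myl4 from 0.922 to 17.4. Dkk3 held most of the list's sum, which was 128 to 334 CPM in sham and 129 to 194 in banded WT libraries and 147 to 227 and 129 to 185 in those of KO. Of the 8 sham libraries, 3 stand apart: WT SHAM 2, WT SHAM 3 and KO SHAM 4. Their summed cardiomyocyte markers were 20769.6 to 28755 CPM against 32379.9 to 40564 in the other 5. Their smooth muscle markers (Myh11, Cnn1, Tagln, Acta2, Des) summed to 1920.4 to 3697 CPM against 1411 to 1844. Of these, Des held most of the sum in the other 5. Des alone ran lower in the 3, at 910 to 1095 CPM against 1309 to 1646 CPM. Adipocyte markers (Adipoq, Plin1, Lep, Cidec) summed to 21.1 to 72.97 CPM in the 3 libraries and to at most 0.212 in the other 5. Fibroblast markers summed to 1311 to 2173 CPM in the 3 against 633 to 865 in the other 5. Macrophage and monocyte markers summed to 64.0 to 92.7 CPM against 24.8 to 38.1. Mesothelial markers summed to 48.4 to 91.8 CPM against 7.48 to 25.2. The atrial sums were 226.7 to 334 CPM in the 3 against 128 to 225.8 in the other 5. The endothelial and T lymphocyte sums overlapped. Among the 8 banded libraries, KO PAB 3 stands apart, with adipocyte markers of 8.28 CPM against at most 0.775 in the other 7. Its fibroblast markers summed to 1091 CPM against at most 854, and its macrophage and monocyte markers to 82.8 CPM against at most 41.2. Without KO PAB 3 the averaged banding count below was the same, at 5. In bulk tissue, fewer cells of a type and less RNA per cell cannot be told apart, and the part of the 3 sham libraries in each banding result is given below by the values without them.

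Banding, averaged over the 2 genotypes, moved 5 of the 73 channel genes past the test. Among them, Scn3b and Hcn2 rose, and Scn7a and Scn4b fell. Scn3b and Scn4b are beta subunits of sodium channels, Scn7a is an atypical sodium channel pore gene, and Hcn2 is a pacemaker channel. Over all 13458 genes tested, 5.09% passed the same test (edgeR quasi-likelihood test, Benjamini-Hochberg adjusted p below 0.05), and 5 of 73 is near that background. At an unadjusted p below 0.05, 30 of the 73 passed (41.1%, 12 higher and 18 lower) against 22.7% of all genes. The median log2 fold change was −0.16 over the channel genes and −0.024 over all genes, with channel values from −3.09 to 1.89. In 2 channel genes, Scn3b and Scn7a, the banded and sham libraries did not overlap in either genotype. That is 2.74%, beside 1.71% of all genes. The count of 5 depended on single libraries: it was 3 without KO PAB 2, 8 without KO SHAM 4 and 10 without WT SHAM 4. The count over all genes moved as well, from 356 to 964 with single libraries left out, beside 685 with every library.

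Leaving out the 3 sham libraries that stand apart keeps only WT SHAM 1 and 4 and KO SHAM 1 to 3 as shams. KO PAB 3 was kept. Without the 3 sham libraries, 71 channel genes were tested and 11 were past the test, beside 7% of all genes. Among them, Scn3b, Hcn2, Kcne1, Kcnj14 and Cacna1g were higher after banding and Scn7a, Scn4b, Kcnj5, Kcnj3 and Kcnk2 were lower. All 5 genes called with every library were thus called again. Of 4 atrial markers tested in the same comparison, Myl7 was past the test at 4.55 (adjusted p 0.0356), and Myl4, Sln and Dkk3 had 1.86, 2.99 and −0.23. Their median was 2.43, and 0.66 with every library, when none passed. The part of atrial muscle in these channel results was not tested. Unadjusted, 23 of the 71 passed, 32.4% beside 24.8% of all genes. The median of the channel genes moved to −0.014, from −0.16 with every library.

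**Figure D1:**
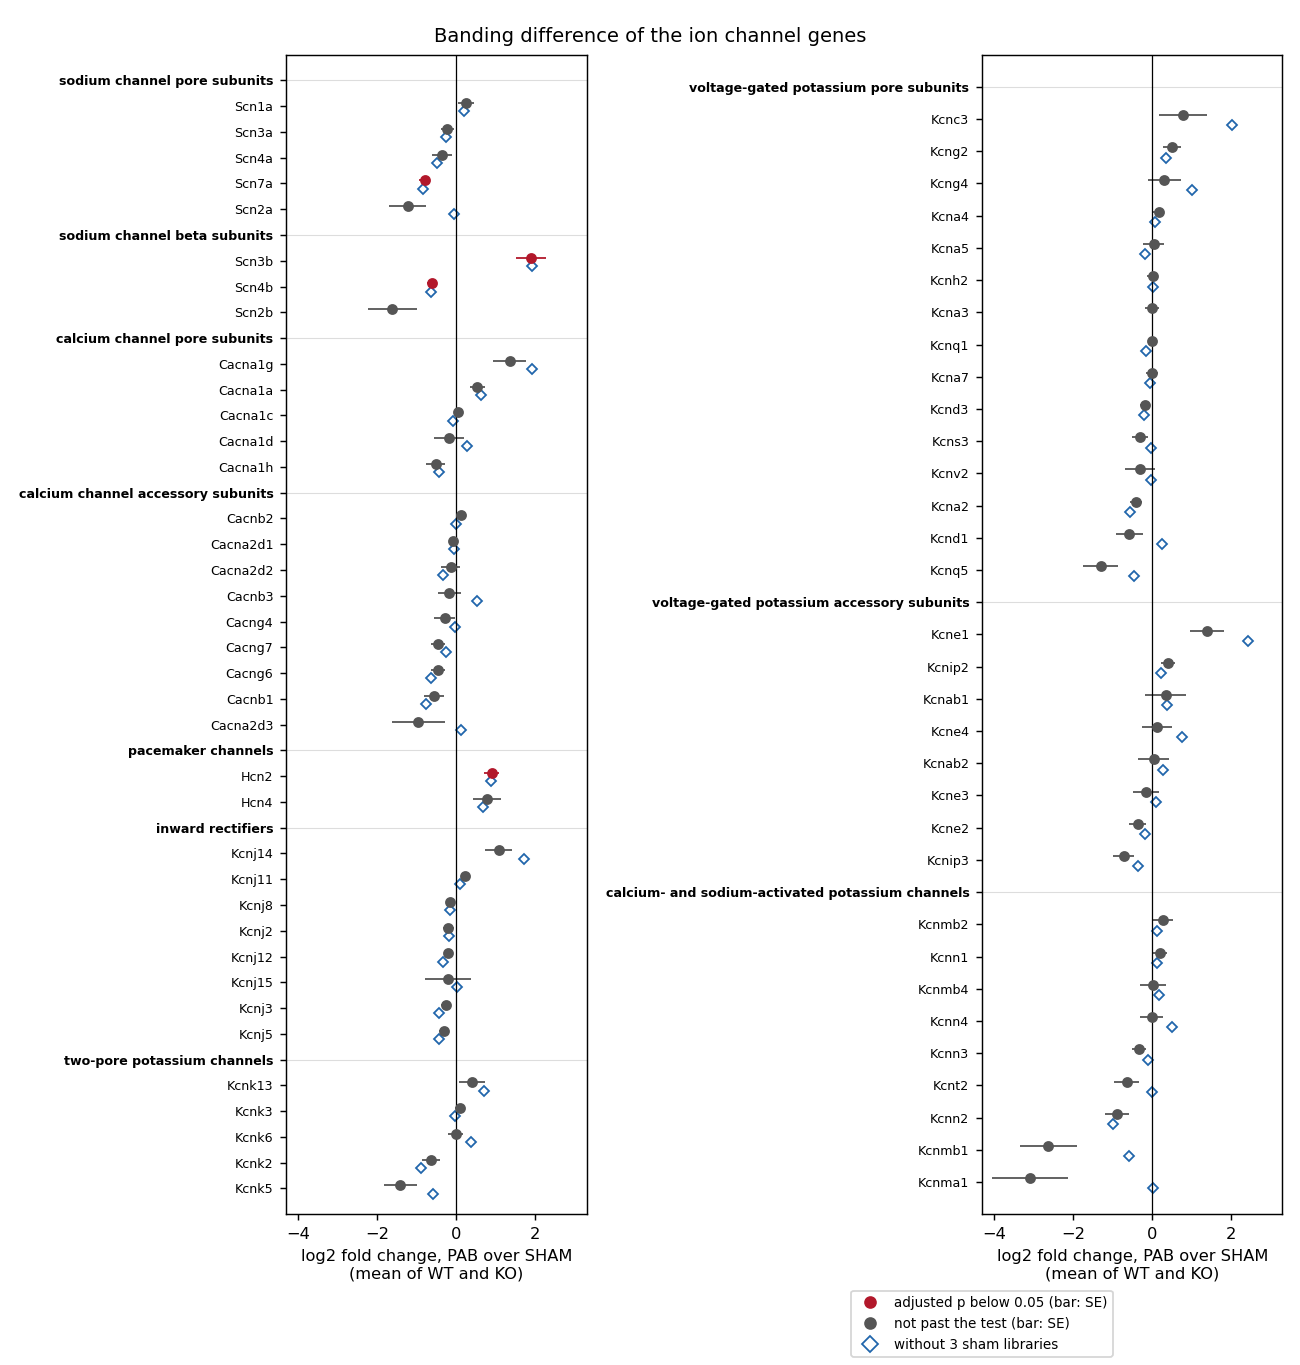
Log2 fold change of 69 of the 73 channel genes for PAB against SHAM, averaged over WT and KO, with its standard error as a bar, ordered within 10 role groups; red marks genes past the test and hollow diamonds give the value without WT SHAM 2, WT SHAM 3 and KO SHAM 4. The 4 red genes lie in the sodium channel and pacemaker groups, while the diamonds of Kcnma1 and Kcnmb1 lie far from their points.

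The plot of 69 fold changes shows that most channel genes lay within 1 log2 unit of 0. Leaving out the 3 libraries shifted Kcnma1 and Kcnmb1 furthest. The genes are described below by role. Those outside the naming rule given with the processing were chosen after their values were seen.

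The regions just upstream of 3 of the 5 called genes, those for which an entry was found, are shown first. They hold the 250 bases before the annotated start in RefSeq (assembly GRCr8, a different build from the one the counts were made on), printed 5′ to 3′ in the direction of transcription. Hcn2 lies at chr7:10639458-10639707 on the minus strand, Scn4b at chr8:54343623-54343872 on the plus strand and Scn7a at chr3:71846285-71846534 on the minus strand. Capitals mark GC boxes (GGGCGG or its reverse complement CCGCCC) and the MCAT element (CATTCC or its reverse complement). Scn3b had no entry.
Hcn2 upstream region: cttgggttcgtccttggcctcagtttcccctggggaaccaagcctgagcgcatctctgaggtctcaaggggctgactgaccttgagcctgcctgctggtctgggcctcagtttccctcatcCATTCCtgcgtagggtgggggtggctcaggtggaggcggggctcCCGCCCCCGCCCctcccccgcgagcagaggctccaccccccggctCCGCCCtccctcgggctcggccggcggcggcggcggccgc
Scn4b upstream region: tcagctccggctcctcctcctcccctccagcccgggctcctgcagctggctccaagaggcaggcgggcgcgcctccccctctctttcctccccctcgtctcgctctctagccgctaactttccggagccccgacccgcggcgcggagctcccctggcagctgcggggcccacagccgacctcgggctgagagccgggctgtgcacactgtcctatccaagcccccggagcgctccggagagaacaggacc
Scn7a upstream region: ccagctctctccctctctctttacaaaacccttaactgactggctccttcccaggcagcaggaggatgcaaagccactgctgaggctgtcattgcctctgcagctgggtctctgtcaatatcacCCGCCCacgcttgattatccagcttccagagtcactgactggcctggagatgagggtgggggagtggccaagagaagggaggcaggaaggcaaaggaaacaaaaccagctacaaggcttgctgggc
Hcn2, which rose, has 18 CpG pairs in this window, 71.6% G and C, 3 GC boxes and 1 MCAT element. Scn4b, which fell, has 21 CpG pairs and the same 71.6% G and C, but none of the motifs searched. Scn7a, which fell, has 2 CpG pairs, 56.0% G and C and 1 GC box. Entries were found for 48 of the 73 genes, with 53 windows. Their median was 14 CpG pairs and 62.8% G and C, beside 5 and 51.2% over all 33469 windows of this length. On either strand, a GC box was present in 56.6% of the channel windows and 30.5% of all, the TATA box TATAAA in 0 of 53 and 12.9% of all, and CCAAT in 15.1% and 34.0%. CATTCC was in 7.55% and 12.1%, the GATA element AGATAA in 11.3% and 10.3%, and the palindromic estrogen response element (GGTCA and TGACC with 3 bases between) in 0 of 53 and 0.0239%. No 2 different motifs overlapped in the windows shown. A match gives letters in a window and is no measure of binding.

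Among the sodium channel pore genes, Scn7a fell. It codes for a channel known from glia and Schwann cells that senses sodium concentration rather than voltage. Among WT libraries, Scn7a stood at 24.5, 23.5, 20.5 and 26.0 CPM in SHAM 1 to 4 and at 10.7, 16.3, 17.7 and 19.3 CPM in PAB 1 to 4. Values in KO were 29.3, 25.4, 20.3 and 26.6 CPM for SHAM 1 to 4 and 15.6, 10.8, 15.5 and 7.91 CPM for PAB 1 to 4. Every banded library of either genotype lay below every sham library, with KO PAB 4 the lowest, followed by WT PAB 1 and KO PAB 2. The gene fell by 0.80 on the log2 scale (SE 0.15, adjusted p 0.00886, edgeR quasi-likelihood test), 1.74-fold lower. Markers of Schwann and nerve cells moved beside it: among 7 tested, Cdh19 fell (log2 −0.84, adjusted p 0.0360) and Ncam1, which muscle can also make, rose (1.97, adjusted p 0.0227). The list summed to 19.7 to 49.9 CPM in sham and 26.6 to 76.8 CPM in banded WT libraries, and to 24.9 to 34.8 CPM and 32.0 to 78.4 CPM for the same surgeries of KO. Its part in the Scn7a result was not tested.

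Scn1a, a pore gene best known from neurons, had a log2 fold change of 0.26 (SE 0.20), Scn3a −0.22 (SE 0.16) and Scn4a, the skeletal muscle gene, −0.36 (SE 0.26). Scn2a, a neuronal gene, was at most 2.28 CPM. Its averaged value of −1.22 (SE 0.46) became −0.061 without the 3 sham libraries, in which it was 0.931 to 2.28 CPM against 0.230 to 0.415 in the other 5.

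The beta subunits are small membrane proteins that tune the gating and placement of the pore. Among them, Scn3b rose and Scn4b fell. Scn3b gave 0.922, 1.81, 1.93 and 2.18 CPM in the sham libraries WT SHAM 1 to 4, and 9.84, 3.20, 2.55 and 7.06 CPM in the banded WT PAB 1 to 4. For KO these were 0.558, 3.91, 2.85 and 1.92 CPM and 4.93, 12.7, 10.8 and 10.1 CPM in the same order. Each banded library was above every sham library of its own genotype, and the highest WT values were in WT PAB 1 and 4. Scn3b rose by 1.89 on the log2 scale (SE 0.37, adjusted p 0.0124), 3.71-fold.

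Scn4b, the subunit linked to resurgent sodium current, moved the other way. Scn4b measured 197, 158, 186 and 179 CPM in WT SHAM 1 to 4 and 85.9, 156, 119 and 79.4 CPM in WT PAB 1 to 4. The KO libraries had 245, 216, 200.1 and 216 CPM in SHAM 1 to 4 and 202, 143, 156 and 117 CPM in PAB 1 to 4. In WT every banded library was below every sham library, WT PAB 2 only narrowly. In KO all 4 banded libraries were lower than the 3 highest shams, and KO PAB 1 overlapped the lowest sham. Scn4b fell by 0.61 on the log2 scale (SE 0.14, adjusted p 0.0203), 1.52-fold lower. Without KO PAB 2 its adjusted p was 0.0517. Scn2b had at most 2.05 CPM, in one of the 3 sham libraries that stand apart, and was not tested without them.

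**Figure D2:**
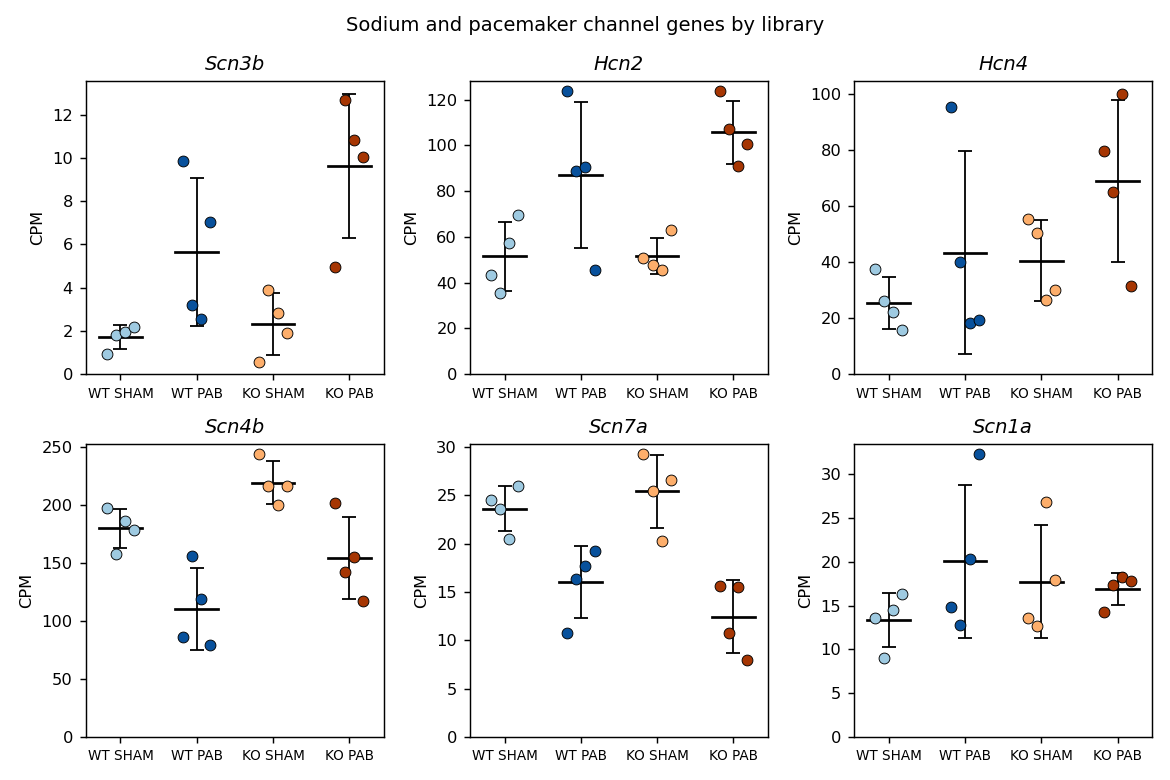
CPM of Scn3b, Hcn2, Hcn4, Scn4b, Scn7a and Scn1a in each of the 16 libraries (points), with the mean and SD of each group of 4 (line and whisker). Scn3b and Hcn2 sit higher in both banded groups and Scn4b and Scn7a lower, while the groups overlap for Hcn4 and Scn1a, and 1 WT PAB library lies among the shams for Hcn2.

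Of the pacemaker channels, Hcn2 rose and Hcn4, the main form of the sinus node, was not past the test. Among WT libraries, Hcn2 stood at 43.3, 35.4, 57.5 and 69.5 CPM in SHAM 1 to 4 and at 124, 88.8, 90.3 and 45.7 CPM in PAB 1 to 4. Values in KO were 50.7, 47.6, 45.3 and 63.2 CPM for SHAM 1 to 4 and 124, 107, 91.2 and 101 CPM for PAB 1 to 4. Every KO PAB library was above every KO SHAM library. In WT 3 banded libraries were above all shams, and WT PAB 4 was among them. The log2 fold change was 0.90 (SE 0.18, adjusted p 0.0124), 1.86-fold. Hcn4 measured 37.6, 26.0, 22.2 and 15.6 CPM in WT SHAM 1 to 4 and 95.6, 40.1, 18.1 and 19.4 in WT PAB 1 to 4. In KO, Hcn4 measured 55.4, 50.3, 26.3 and 29.9 CPM in KO SHAM 1 to 4 and 79.8, 64.9, 100.03 and 31.4 in KO PAB 1 to 4. The groups overlapped in both genotypes. The fold change on the log2 scale was 0.77 (SE 0.36), adjusted p 0.215. Of the conduction cell markers, Shox2 and Isl1 were too low to test, and Cntn2 and Tbx3 were not past the test. The summed list was 3.09 to 36.4 CPM in sham and 3.19 to 4.74 CPM in banded WT libraries, against 3.02 to 10.6 CPM and 1.99 to 6.85 CPM for KO. Its high sham values were those of the 3 sham libraries that stand apart, at 9.92 to 36.4 CPM. In the other 5 shams the sum was 3.02 to 3.99 CPM, beside 1.99 to 6.85 CPM in the 8 banded libraries.

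Of the 5 calcium channel pore genes and 9 accessory genes, 0 were past the averaged edgeR test or that of limma-voom. At an unadjusted p below 0.05, 3 of each were, and DESeq2 called 2, the pore genes Cacna1a and Cacna1g. The L-type pore Cacna1c, which carries the plateau current of ventricular muscle, was close between groups, with 104 ± 20.5 CPM in sham and 109.8 ± 6.37 CPM in banded WT libraries, and 107 ± 15.1 CPM and 107 ± 7.97 CPM likewise in KO (mean ± SD, n = 4 each). Its log2 fold change was 0.044 (SE 0.093). The values of its partners were 0.12 (SE 0.10) for the beta subunit Cacnb2 and −0.088 (SE 0.072) for the alpha2delta subunit Cacna2d1. The other L-type pore, Cacna1d, had −0.19 (SE 0.38).

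The T-type pore Cacna1g, which opens at low voltage and is active in the developing heart, was the calcium gene with the smallest p. Cacna1g gave 2.12, 8.87, 7.09 and 5.51 CPM in the sham libraries WT SHAM 1 to 4, and 26.5, 8.82, 5.08 and 7.02 CPM in the banded WT PAB 1 to 4. For KO these were 2.91, 4.14, 4.33 and 9.80 CPM and 8.13, 11.4, 29.4 and 21.7 CPM in the same order. The banded libraries spread over a wide range that reached into that of the shams. The log2 fold change was 1.36 (SE 0.42), adjusted p 0.0721, and 1.93 without the 3 sham libraries, where it was past the test (adjusted p 0.0438). The other T-type pore, Cacna1h, pointed the other way at −0.52 (SE 0.24), adjusted p 0.208. Cacna1a, the P/Q-type pore of nerve endings, had 0.54 (SE 0.18), adjusted p 0.0912. Of the accessory genes, 8 of 9 were lower after banding, with a median log2 fold change of −0.29, and −0.059 without the 3 sham libraries.

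Of 17 voltage-gated potassium pore genes, 0 were past the averaged edgeR test, 4 were at an unadjusted p below 0.05, and 0 were past the test by DESeq2 or limma-voom. Their median log2 fold change was 0.0002, with 9 above 0 and 8 below. The delayed rectifier genes Kcnh2 and Kcnq1 lay near 0, at 0.017 (SE 0.15) for Kcnh2 and 0.0002 (SE 0.11) for Kcnq1. Kcnd3, a fast transient outward pore, had −0.19 (SE 0.11) and its slower counterpart Kcna4 0.17 (SE 0.14). Kcna2 was lower at −0.41 (SE 0.16), adjusted p 0.132, and Kcna5, an atrial repolarizing channel, had 0.044 (SE 0.26). Kcnq5, a channel of neurons and smooth muscle, had −1.30 (SE 0.45), and −0.47 without the 3 sham libraries.

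Of the 8 accessory genes of these pores, 0 were past the averaged edgeR test or that of limma-voom, 3 were at an unadjusted p below 0.05, and DESeq2 called 1, Kcne1. Kcnip2, the partner of the Kcnd channels, had 0.40 (SE 0.18), adjusted p 0.191. In KO its banded libraries (55.1 to 71.4 CPM) were all above the shams (35.4 to 48.0 CPM). Kcne1, the small partner of Kcnq1, was counted at no more than 1.65 CPM. Kcne1 measured 0.138, 0.293, 0.537 and 0.0822 CPM in WT SHAM 1 to 4 and 0.576, 1.65, 0.511 and 0.656 CPM in WT PAB 1 to 4. The KO libraries had 0.155, 0.192, 0.0850 and 0.549 CPM in SHAM 1 to 4 and 0.829, 0.648, 0.220 and 0.567 CPM in PAB 1 to 4. Most sham libraries were lower than most banded ones, with the higher shams among the 3 libraries that stand apart. The difference of Kcne1 was 1.39 (SE 0.44) on the log2 scale, with adjusted p 0.0772, and 2.42 with adjusted p 0.0203 without the 3 sham libraries. Kcnip3 had −0.72 (SE 0.26), and −0.36 without those libraries.

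The inward rectifiers hold the resting potential (Kcnj2, Kcnj12), respond to acetylcholine (Kcnj3, Kcnj5) or sense ATP (Kcnj8, Kcnj11). Of the 8 measured, 0 were past the averaged edgeR test or that of limma-voom, 3 were at an unadjusted p below 0.05, and DESeq2 called 1, Kcnj14. After banding 6 had lower values. Kcnj2 and Kcnj12 were close together at −0.19 (SE 0.14) and −0.20 (SE 0.11). The acetylcholine-gated pair had −0.26 (SE 0.13) for Kcnj3 and −0.32 (SE 0.12) for Kcnj5. Without the 3 sham libraries both were past the test, at −0.42 (adjusted p 0.0408) and −0.43 (adjusted p 0.0450), and both were lower in each of those 3 libraries than in the other 5 shams. Kcnj11, the ATP-sensitive pore of heart muscle, had 0.21 (SE 0.10), adjusted p 0.211.

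Kcnj14 had the largest positive value of the inward rectifiers. Among WT libraries, Kcnj14 stood at 0.830, 1.84, 1.75 and 0.658 CPM in SHAM 1 to 4 and at 4.57, 2.36, 0.894 and 1.20 CPM in PAB 1 to 4. Values in KO were 1.43, 1.61, 1.32 and 3.57 CPM for SHAM 1 to 4 and 5.35, 4.30, 6.05 and 4.75 CPM for PAB 1 to 4. In KO every banded library was above every sham, and in WT the groups overlapped. Its log2 fold change was 1.08 (SE 0.34), adjusted p 0.0753, and 1.71 with adjusted p 0.0243 without the 3 sham libraries.

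The two-pore channels carry background potassium current. Of 5, 0 were past the averaged edgeR test or that of limma-voom, 2 were at an unadjusted p below 0.05, and DESeq2 called 1, Kcnk5. Kcnk3, the form that responds to acid, had 0.09 (SE 0.12). Kcnk2, which responds to stretch, had −0.64 (SE 0.24, adjusted p 0.125), and −0.89 (adjusted p 0.0434) without the 3 sham libraries, where it was past the test. Kcnk5 had −1.41 (SE 0.41), adjusted p 0.0595, and −0.58 without those libraries. Kcnk6 and Kcnk13 had −0.012 (SE 0.19) and 0.40 (SE 0.32).

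Kcnma1 and Kcnmb1, of the calcium- and sodium-activated potassium channels, had the largest averaged values of the 73 in size, and those values were near 0 or far smaller without the 3 sham libraries. Of 9 genes, 0 were past the averaged edgeR test or that of limma-voom, 3 were at an unadjusted p below 0.05, and DESeq2 called 3 (Kcnma1, Kcnmb1 and Kcnn2). Kcnma1 gave 0.0922, 15.5, 4.80 and 0.617 CPM in the sham libraries WT SHAM 1 to 4, and 0.154, 1.07, 0.128 and 0.154 CPM in the banded WT PAB 1 to 4. For KO these were 0.372, 0.384, 0.425 and 6.89 CPM and 0.226, 0.152, 0.843 and 0.319 CPM in the same order. WT SHAM 2, WT SHAM 3 and KO SHAM 4 were far above all other libraries, and the remaining shams overlapped the banded libraries. The averaged log2 fold change of Kcnma1 was −3.09 (SE 0.96), adjusted p 0.0761, and 0.035 without the 3. Kcnmb1 measured 0.507, 17.3, 4.33 and 1.64 CPM in WT SHAM 1 to 4 and 1.08, 1.29, 0.511 and 0.617 CPM in WT PAB 1 to 4. The KO libraries had 0.496, 1.04, 1.02 and 7.69 CPM in SHAM 1 to 4 and 0.490, 0.152, 0.623 and 0.567 CPM in PAB 1 to 4. The same 3 libraries were the highest. Kcnmb1 had −2.63 (SE 0.72), adjusted p 0.0507, and −0.58 without the 3. The smooth muscle markers Myh11, Cnn1 and Tagln fell in the averaged comparison, by 2.48, 3.64 and 2.79 on the log2 scale. The mean of Acta2 was also lower after banding (335 to 42.9 CPM in WT, 130 to 32.0 in KO). That of Des was higher (1236 to 1516 CPM in WT, 1329 to 1545 in KO). None of the 5 markers was past the test without the 3 libraries.

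Of the other genes of this group, Kcnn2, a small-conductance channel, had −0.89 (SE 0.29, adjusted p 0.0912) and −0.98 without the 3 libraries. In WT its banded libraries (0.192 to 0.894 CPM) were all below the shams (0.931 to 1.19 CPM). The sodium-activated gene Kcnt2 had −0.64 (SE 0.32), and 0.00092 without the 3. Over all 73 genes, 19 (26.0%) were above and 6 (8.22%) below the other 5 sham libraries in each of the 3, beside 16.4% and 15.3% of all genes. Those below included Kcnk2, Kcnq1, Kcnj3, Kcnj5 and Kcnk3. Kcnma1 and Kcnmb1 also had the widest spread within groups, with an SD of log2(CPM + 1) of 1.12 and 0.981 beside a median of 0.289 over the 73 genes.

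**Figure D3:**
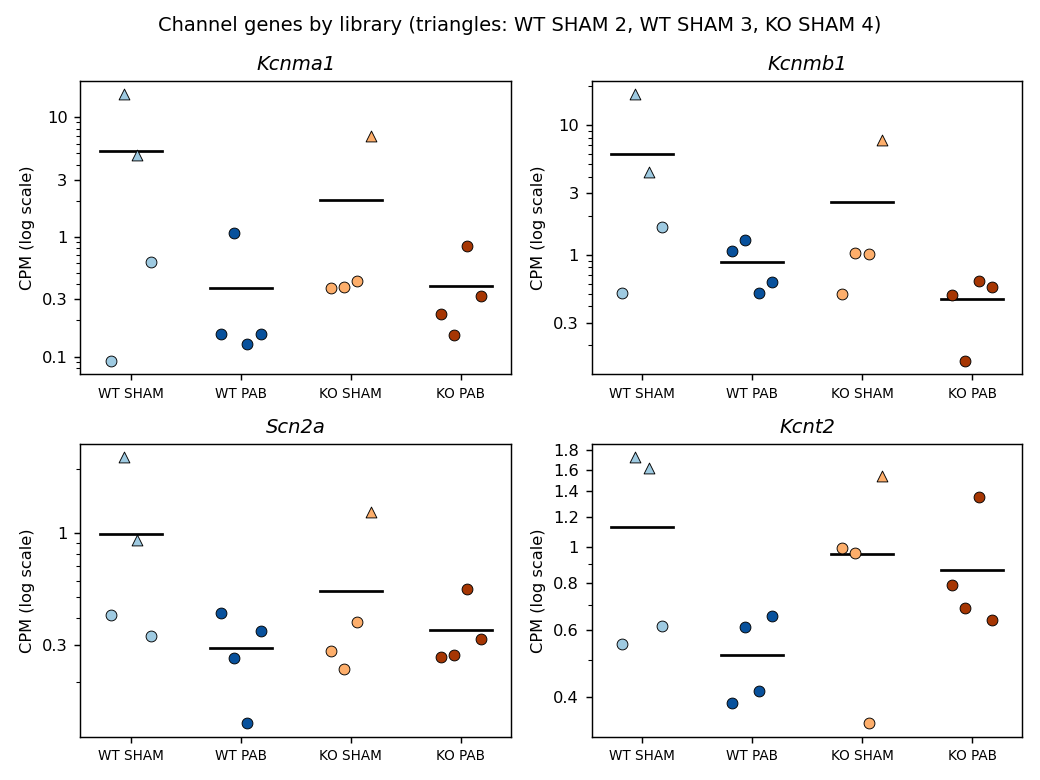
CPM on a log scale of Kcnma1, Kcnmb1, Scn2a and Kcnt2 in each library, with the mean of each group of 4 as a line and triangles for WT SHAM 2, WT SHAM 3 and KO SHAM 4. For Kcnma1 and Kcnmb1 the triangles lie far above the other 5 sham libraries, which overlap the banded ones.

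Within WT, 0 of the 73 channel genes were past the edgeR test for banding, and 0 by DESeq2 and by limma-voom. Over all genes 0.00743% passed (1 gene). At an unadjusted p below 0.05, 17 channel genes passed (5 higher, 12 lower), 23.3% beside 11.7% of all genes. In 5 genes (Kcna4, Kcnn2, Scn3b, Scn4b and Scn7a) the WT groups did not overlap, 6.85% beside 4.93% of all genes. Of the genes called on average, the WT log2 fold change was 1.71 (SE 0.53) for Scn3b, 0.76 (SE 0.25) for Hcn2, −0.71 (SE 0.19) for Scn4b and −0.56 (SE 0.21) for Scn7a.

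Within KO, 1 channel gene was past the test, Scn7a, which fell by 1.03 on the log2 scale (SE 0.21, adjusted p 0.0396, edgeR quasi-likelihood test). Over all genes 0.632% passed. This call was kept in 9 of 24 alternatives, with adjusted p from 0.000505 to 0.139, and was lost without the 3 sham libraries. With single libraries left out, it held only without WT SHAM 2, WT PAB 1, WT PAB 4 or KO PAB 1. Unadjusted, 17 genes passed (7 higher, 10 lower), 23.3% beside 15.6% of all genes. In 10 genes the KO groups did not overlap (13.7% beside 10.2% of all). Among them, Scn3b, Hcn2, Cacna1a, Kcnip2 and Kcnj14 were higher and Scn7a, Kcnj5 and Kcnj8 lower. The values were 2.07 (SE 0.53) for Scn3b, 1.03 (SE 0.25) for Hcn2 and 0.86 (SE 0.25) for Cacna1a.

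The WT and KO comparisons share no library. Their log2 fold changes had the same sign in 53 of 73 channel genes (72.6%, 18 higher and 35 lower in both), beside 68.4% of all genes. Without the 3 sham libraries this was 46 of 71 (64.8%) beside 71.4%.

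**Figure D4:**
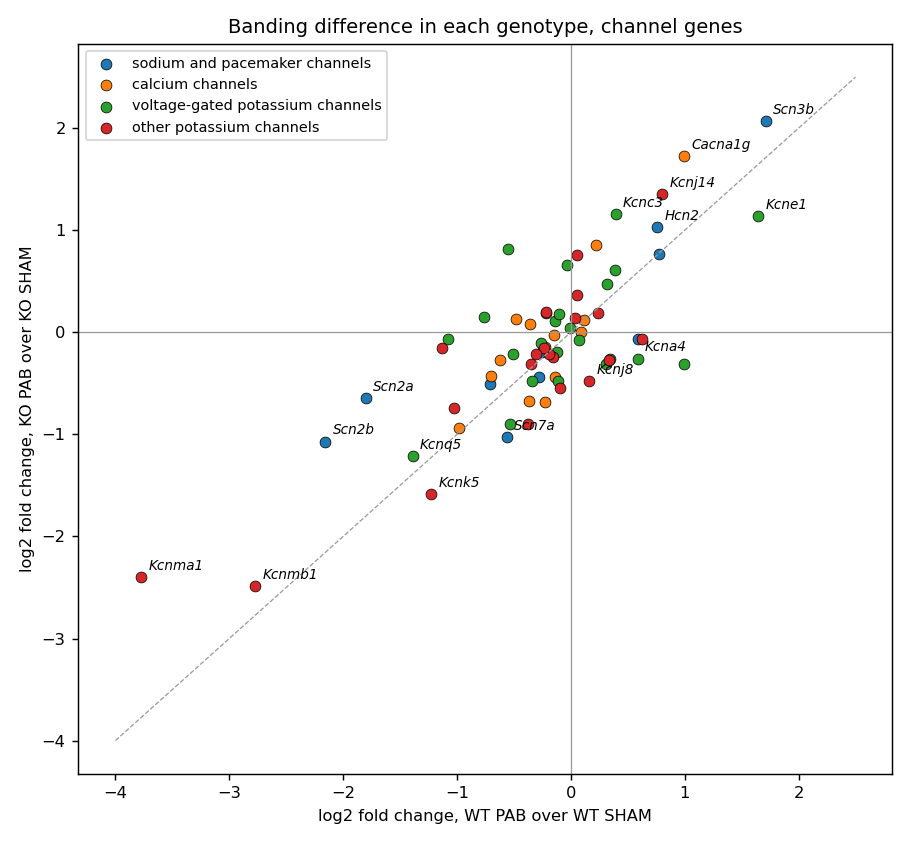
Log2 fold change for banding in KO (vertical axis) against that in WT (horizontal axis) for 69 channel genes, one point per gene, with the diagonal of equal values. Scn3b and Hcn2 lie in the upper right, Scn4b and Scn7a in the lower left, and Kcnj8 and Kcna4 in the lower right, with opposite signs in the 2 genotypes.

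No channel gene was past the test of the difference between the 2 responses to banding (edgeR interaction term), and 0 were by DESeq2 or limma-voom. Over all genes 0% passed. Unadjusted, 2 of the 73 passed, beside 1.76% of all genes: Kcnj8 and Kcna4. Kcnj8 is an ATP-sensitive pore of vessel walls. Among WT libraries, Kcnj8 stood at 19.6, 23.9, 16.9 and 21.0 CPM in SHAM 1 to 4 and at 22.5, 23.6, 25.4 and 19.7 CPM in PAB 1 to 4. Values in KO were 20.6, 24.9, 23.8 and 23.8 CPM for SHAM 1 to 4 and 14.2, 19.8, 16.1 and 16.9 CPM for PAB 1 to 4. In KO every banded library lay below every sham, while in WT the groups overlapped with a slightly higher mean after banding. The log2 fold change was 0.16 (SE 0.12) in WT and −0.47 (SE 0.12) in KO, a difference of −0.64 (SE 0.17) with an unadjusted p of 0.00198 and an adjusted p of 0.999. Pericytes are cells in which Kcnj8 is known to be active. Their markers summed to 121 to 305 CPM in sham and 143 to 184 CPM in banded WT libraries. For the same surgeries of KO the sums were 95.6 to 257 CPM and 118 to 163 CPM. The 3 sham libraries that stand apart had 156 to 305 CPM, against 95.6 to 153 CPM in the other 5 shams. The 8 banded libraries had 118 to 184 CPM. The part of these markers in the Kcnj8 result was not tested.

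Kcna4 was the other. Kcna4 gave 3.32, 2.52, 2.79 and 3.25 CPM in the sham libraries WT SHAM 1 to 4, and 3.69, 3.39, 5.27 and 5.48 CPM in the banded WT PAB 1 to 4. For KO these were 2.57, 4.30, 4.16 and 3.07 CPM and 3.05, 3.39, 2.86 and 2.48 CPM in the same order. In WT every banded library was above every sham, and in KO the groups overlapped. The log2 fold change was 0.59 (SE 0.20) in WT and −0.26 (SE 0.20) in KO, a difference of −0.84 (SE 0.28, unadjusted p 0.00954, adjusted p 0.999). Among the genes past the averaged test, the interaction values were 0.36 (SE 0.73) for Scn3b, 0.27 (SE 0.35) for Hcn2, 0.20 (SE 0.27) for Scn4b and −0.47 (SE 0.29) for Scn7a, none past the test.

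Between KO and WT, 0 of the 73 genes were past the edgeR test in SHAM, in PAB or on average, and 0 by DESeq2 and by limma-voom. Over all genes 0.00743% passed in each, which is 1 gene. At an unadjusted p below 0.05, 1 channel gene passed in SHAM beside 2.03% of all genes, 4 in PAB beside 4.52%, and 4 on average beside 4.93%. In SHAM the gene was Kcnv2, a silent subunit that modifies other potassium channels, at −1.31 (SE 0.54, unadjusted p 0.0269, adjusted p 0.996). It measured 2.21, 5.44, 1.33 and 1.07 CPM in WT SHAM 1 to 4 and 0.372, 1.42, 1.40 and 0.906 in KO SHAM 1 to 4. The WT values spread widely, and on average over the surgeries its value was −0.86 (SE 0.38).

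In PAB, Kcnj8 was −0.45 (SE 0.12, unadjusted p 0.00218) and Kcna4 −0.60 (SE 0.20, unadjusted p 0.00945), both lower in KO. The Kcna4 groups all but touched, with a lowest WT PAB value of 3.392 CPM and a highest KO PAB value of 3.390 CPM. Scn4b and Kcnj14 were 0.49 (SE 0.19) and 1.18 (SE 0.47), both higher in KO. Averaged over the surgeries, Scn4b was 0.39 (SE 0.14, unadjusted p 0.0129, adjusted p 0.989) and Kcnj14 0.91 (SE 0.34, unadjusted p 0.0169). The T-type pore Cacna1h was −0.52 (SE 0.24), lower in KO. The adjusted p of each of these exceeded the threshold.

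**Figure D5:**
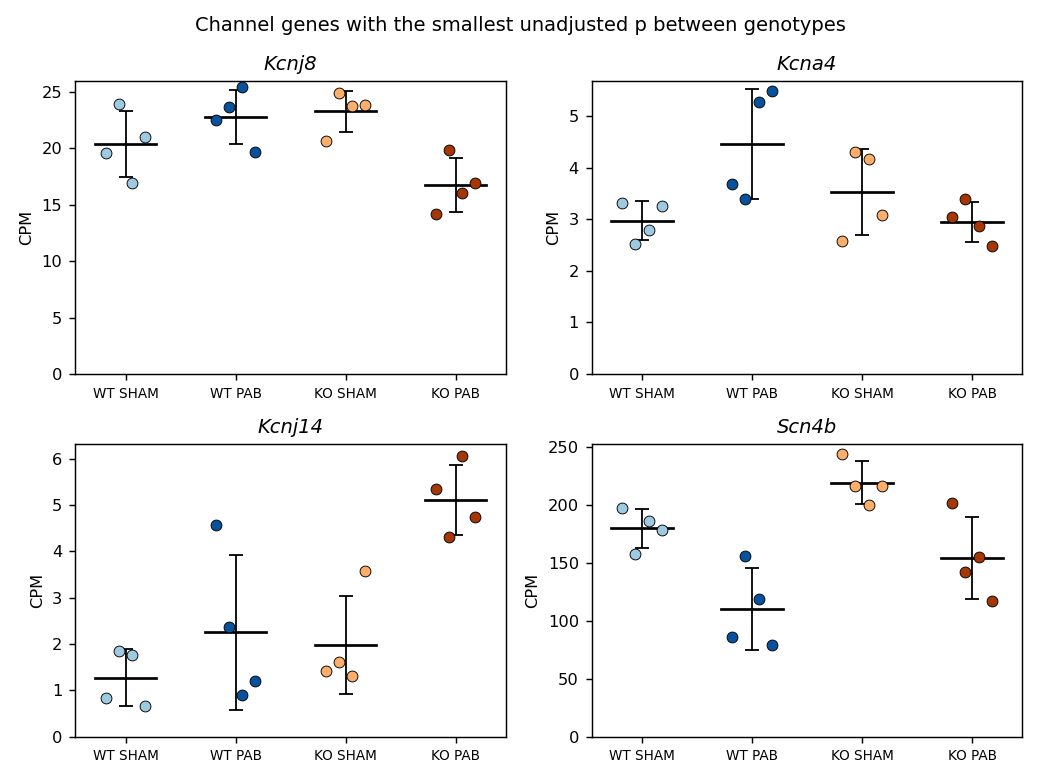
CPM of Kcnj8, Kcna4, Kcnj14 and Scn4b in each library (points) with the mean and SD of each group of 4. Kcnj8 is lowest in KO PAB and Kcna4 highest in WT PAB, while Scn4b is lower after banding in both genotypes; no KO against WT difference of these genes was past the test.

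Other genes of excitability were described from lists of channel partners. Of 45 tested, 1 was past the averaged banding test: Hey2, a transcription factor of ventricular muscle, which fell by 0.59 on the log2 scale (SE 0.16, adjusted p 0.0418), and had an adjusted p of 0.0503 without the 3 sham libraries. The median log2 fold change of the 45 was −0.044 beside −0.024 for all genes. In each of the other 6 comparisons 0 of the 45 passed the edgeR test, with 5 at an unadjusted p below 0.05 for banding in WT and 4 in KO. Among partners of the sodium channel, Fgf12 had 0.15 and Fgf13 −0.16, and the gap junction genes Gja1 and Gjc1 had −0.26 and −0.29. Without the 3 sham libraries Fgf13 (−0.41, adjusted p 0.0122), Gja1 (−0.47, 0.0166) and Gjc1 (−0.41, 0.0342) were lower and past the test. Over all genes 7% passed there. The sulfonylurea receptors Abcc8 and Abcc9, which complete the ATP-sensitive channels, had 0.31 and 0.17.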

How the data were processed

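Per the submitters' processing notes, STAR 2.5.3a and RSEM 1.3.0 were used with the rat build Rnor_6.0. The deposited values are expected counts, stored as whole numbers, 1 file per library. The annotation, the strand setting and the rounding are not given in the sources used here, so reads of overlapping or near-identical genes may be split unevenly. Symbols occurring more than once (274) were kept as separate rows.

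Genes were modelled in edgeR 4.0.16 (R 4.3.3) by a robust quasi-likelihood fit of 4 group means to all 16 libraries, after TMM scaling and filterByExpr, and p-values were adjusted by Benjamini-Hochberg over 13458 genes in each of 7 comparisons, threshold 0.05. Averaged banding is the mean of the WT and KO effects. CPM uses the TMM-scaled totals, and SE is the size of the log2 fold change over the square root of F. The code was tested on simulated data. Alternatives were DESeq2 1.42.0, limma-voom (limma 3.58.1), other scalings and filters, a replicate block, single libraries left out, and 3 sham libraries left out together.

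The members and lists were chosen with earlier results of these data known. Named genes are those past a test, up to 3 per direction and comparison with the smallest p, and a list of cardiac channel genes. Kcnd2, on that list, was not analysed here, and some genes are not reported here.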

Additional observations from a re-analysis of the deposited data

Results flagged for a closer look

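Within each group of 4 libraries, the named channel genes were checked for a single library far from the other 3 (Dixon's test on the gap to the nearest library). Of 156 groups tested, 9 were marked, and chance marks about 5% of groups.

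Of the 9 values, 4 were in KO SHAM 4, one of the 3 sham libraries that stand apart. Kcnma1 was 6.89 CPM there beside 0.372 to 0.425 in the other 3 KO SHAM libraries, Kcnmb1 7.69 beside 0.496 to 1.04, Scn2a 1.26 beside 0.230 to 0.382, and Kcnj14 3.57 beside 1.32 to 1.61. All 4 genes were also higher in WT SHAM 2 and WT SHAM 3 than in the other 5 sham libraries.

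In WT PAB 2, the L-type calcium pore gene Cacna1d was 3.00 CPM beside 0.615 to 0.887 in the other WT PAB libraries, Kcne1 was 1.65 beside 0.511 to 0.656, and Kcnma1 was 1.07 beside 0.128 to 0.154. In KO PAB 3, Cacna1d was 2.02 CPM beside 0.815 to 0.904, and the potassium channel subunit gene Kcne4 was 1.28 beside 0.390 to 0.457. KO PAB 3 also stands apart from the other 7 banded libraries in its adipocyte markers (8.28 CPM against at most 0.775), and their part in these values was not tested. Cacna1d, Kcne1, Kcne4 and Kcnma1 were all among the 19 channel genes that were higher in the 3 sham libraries than in the other 5.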

How the results depend on the processing

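Among the genes past the averaged banding test, Hcn2, Scn3b and Scn7a passed in 23 of 23 alternatives and Scn4b in 22, and no named gene past a test changed direction. The count of 5 became 14 with DESeq2 (8 higher, 6 lower) and 11 without the 3 sham libraries, and ran from 3 (without KO PAB 2) to 10 (without WT SHAM 4) with single libraries left out, with 8 without KO SHAM 4. For banding in KO, the count of 1 became 7 with DESeq2, 2 with only the 2 groups compared, 0 without the 3 sham libraries, and 0 to 3 with single libraries left out. The counts of 0 in WT, in the genotype comparisons and in the interaction stayed 0 in all alternatives. Replicate numbers gave no clear pairing of the libraries: 6 of 24 same-number pairs correlated above 0.1, and 2 of 16 libraries were most like one of their own number. WT SHAM 1, KO SHAM 1 and KO PAB 1 correlated at 0.254 to 0.473, and WT PAB 1 with these at most at 0.0341. A pairing is not excluded by this, because any other difference between libraries also enters the correlations. With a replicate block the KO count was 0. The cause of these shifts was not tested. Over all genes, DESeq2 called 1337 on average beside 685 by edgeR, 509 beside 85 in KO and 108 beside 1 in WT. With single libraries left out, the edgeR counts over all genes ran from 356 to 964 on average and from 0 to 275 in KO. Scn2b and Kcna3 did not pass the count filter without the 3 sham libraries, and genes under 1 CPM rest on few counts per library.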
